A study of Mus musculus with 12 samples.

Results

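Sarcoplasmic reticulum calcium cycling genes were followed in the hearts of male C57BL/6J mice that carried melanoma cells, trained on a treadmill, did both or did neither. The set held 10 genes, chosen by name from the 17397 genes of the count table: Atp2a2, Pln, Sln, Ryr2, Casq2, Slc8a1, Hrc, Jph2, Trdn and Asph. All 10 were found in the table and 9 passed the filter on low counts. The exception was Sln.

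In a heart muscle cell, each beat begins when calcium enters through the surface membrane and opens ryanodine receptors on the sarcoplasmic reticulum, which release the calcium stored there. Relaxation follows when the pump SERCA2a returns calcium to the store, held back by phospholamban until that inhibitor is phosphorylated, and when the sodium-calcium exchanger carries the rest out of the cell. Inside the store, calsequestrin and the histidine-rich calcium binding protein buffer calcium, triadin and junctin tie calsequestrin to the ryanodine receptor, and junctophilin holds the store close to the surface membrane.

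The 4 groups had 3 libraries each, all from wild-type mice aged 8 weeks at the start. Tumour trained mice received B16F10 cells, an established mouse melanoma line, and ran on a treadmill on 5 days a week for 4 weeks. Tumour mice received B16F10 cells and stayed in their cages. Trained mice ran without B16F10 cells, and whether they received saline was not stated. Control mice received saline and stayed in their cages. The 100000 cells were given into the tail vein from week 2, and runs after the first week lasted 35 min at 12 m/min after a slower start of 5 min at 6 m/min. Whether each library came from its own mouse was not stated, and p-values therefore describe the variation among libraries, which may be technical.

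Libraries held 8843909 to 13344847 counts. The protocol named livers as the RNA source and the tissue label named heart. The liver gene Alb reached at most 3.93 CPM (counts relative to library size, scaled between libraries by the trimmed mean of M values, TMM) and the cardiac gene Myh6 was at 6525 to 37544 CPM. Tumour 1 and tumour 2 stood apart: 8 melanocyte markers summed to 12430 and 6363 CPM there and to between 49.6 and 85.2 CPM in the other 10 libraries. In those 10, Mitf alone was at 40.2 to 74.5 CPM. Tyrp1 was at 1.38 CPM in tumour 3 and at 0 CPM in all control, trained and tumour trained libraries. Pmel was at 2.03 CPM in tumour 3 and at most 0.706 CPM in control, trained and tumour trained libraries. A list of 24 cardiomyocyte genes, which held none of the 10 genes, summed to 31130 CPM in tumour 1 and 85065 CPM in tumour 2, against 148502 to 174131 CPM in the other 10. Trained 2 stood apart in the base composition of its counts, given below. In whole tissue, fewer cells of a type and less RNA per cell cannot be told apart.

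The coding sequences of the pump's 2 small inhibitors are shown because they are close relatives of very different level in these libraries. Both were read from the GENCODE M21 annotation on GRCm38 (plus strand), 5′ to 3′. The Pln sequence lies at chr10:53343864-53344022 and has 159 bases, and the Sln sequence lies at chr9:53853473-53853568 and has 96 bases. Capitals in Pln mark codons 16 and 17, the serine and threonine whose phosphorylation relieves the pump.
Pln: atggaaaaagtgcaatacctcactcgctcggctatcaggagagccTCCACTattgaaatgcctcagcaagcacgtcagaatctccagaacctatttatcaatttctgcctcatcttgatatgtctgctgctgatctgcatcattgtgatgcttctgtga
Sln: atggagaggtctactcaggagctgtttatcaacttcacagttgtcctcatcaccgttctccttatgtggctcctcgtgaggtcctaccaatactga
These are reference sequences and not reads of these libraries.

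Trdn and Jph2 are shown because they lie at the 2 ends of the set in base composition, which is set beside the fold changes below. Their longest coding transcripts had 36.8% and 61.8% G and C bases. Each stretch has 150 bases of the longest coding sequence and was taken where its composition was nearest that of the whole transcript. The Trdn stretch covers coding bases 328 to 477 (chromosome 10, plus strand, 36.7% GC) and the Jph2 stretch coding bases 7 to 156 (chromosome 2, minus strand, 62.0% GC).
Trdn: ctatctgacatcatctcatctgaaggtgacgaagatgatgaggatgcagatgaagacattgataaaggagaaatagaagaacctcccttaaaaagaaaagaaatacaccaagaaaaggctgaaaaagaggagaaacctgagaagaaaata
Jph2: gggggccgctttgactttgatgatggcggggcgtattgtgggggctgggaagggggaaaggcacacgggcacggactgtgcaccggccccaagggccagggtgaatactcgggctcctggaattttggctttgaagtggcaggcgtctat
The other 8 genes lay between them: Pln at 38.6%, Slc8a1 at 40.2%, Asph at 44.7%, Sln at 47.0%, Casq2 at 47.2%, Ryr2 at 49.6%, Atp2a2 at 50.8% and Hrc at 53.3%.

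Atp2a2, which encodes the calcium pump SERCA2, was the most abundant of the 10 genes. Its level was 16966, 16726 and 18835 CPM in tumour trained hearts, 3873, 11709 and 21265 CPM in tumour hearts, 18178, 15403 and 15182 CPM in trained hearts, and 19815, 18941 and 17051 CPM in control hearts. Tumour 1 had the lowest level of the 12 libraries and tumour 3 the highest, so the tumour group overlapped every other group. Per kilobase of its longest coding transcript, Atp2a2 averaged 3903 ± 257 CPM in tumour trained hearts, 2738 ± 1942 in tumour hearts, 3623 ± 372 in trained hearts and 4147 ± 315 in control hearts (SD, n = 3 each). In order of mean the groups ran control, tumour trained, trained and tumour, and each overlapped the next. No comparison called Atp2a2.

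Pln, which encodes phospholamban, had 7858, 8472 and 8049 CPM in tumour trained hearts, 1586, 3465 and 6340 CPM in tumour hearts, 7521, 4424 and 7592 CPM in trained hearts, and 6195, 6688 and 5455 CPM in control hearts. Every tumour trained library lay above every library of the other 3 groups. The trained group was split, with trained 2 below all control libraries and the other two above them. Pln was 1.10 ± 0.43 higher on the log2 scale in tumour trained than in tumour hearts (± SE throughout), with an adjusted p of 0.113 in edgeR's quasi-likelihood test, and 0.41 ± 0.43 higher than in control hearts, with an adjusted p of 0.922. Neither passed the threshold of 0.05 for a Benjamini-Hochberg adjusted p over all genes tested, which is the meaning of called here.

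Sln, which encodes sarcolipin, an inhibitor typical of atrium and skeletal muscle, had 1 count in control 2 and 0 in the other 11 libraries. A count of 0 allows up to 3 counts, which was 0.225 to 0.339 CPM before scaling between libraries. Of 6 atrial markers, Myl7 was at most 0.538 CPM, Myl4, Mybphl and Bmp10 at most 2.42 CPM and Nppa between 139 and 426 CPM. Dkk3 was at 56.7 CPM in tumour 1, 23.8 CPM in tumour 2 and at most 3.02 CPM in the other libraries. The 8 skeletal muscle markers in the table summed to at most 3.36 CPM. No fold change or ratio was computed for Sln.

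**Figure D1:**
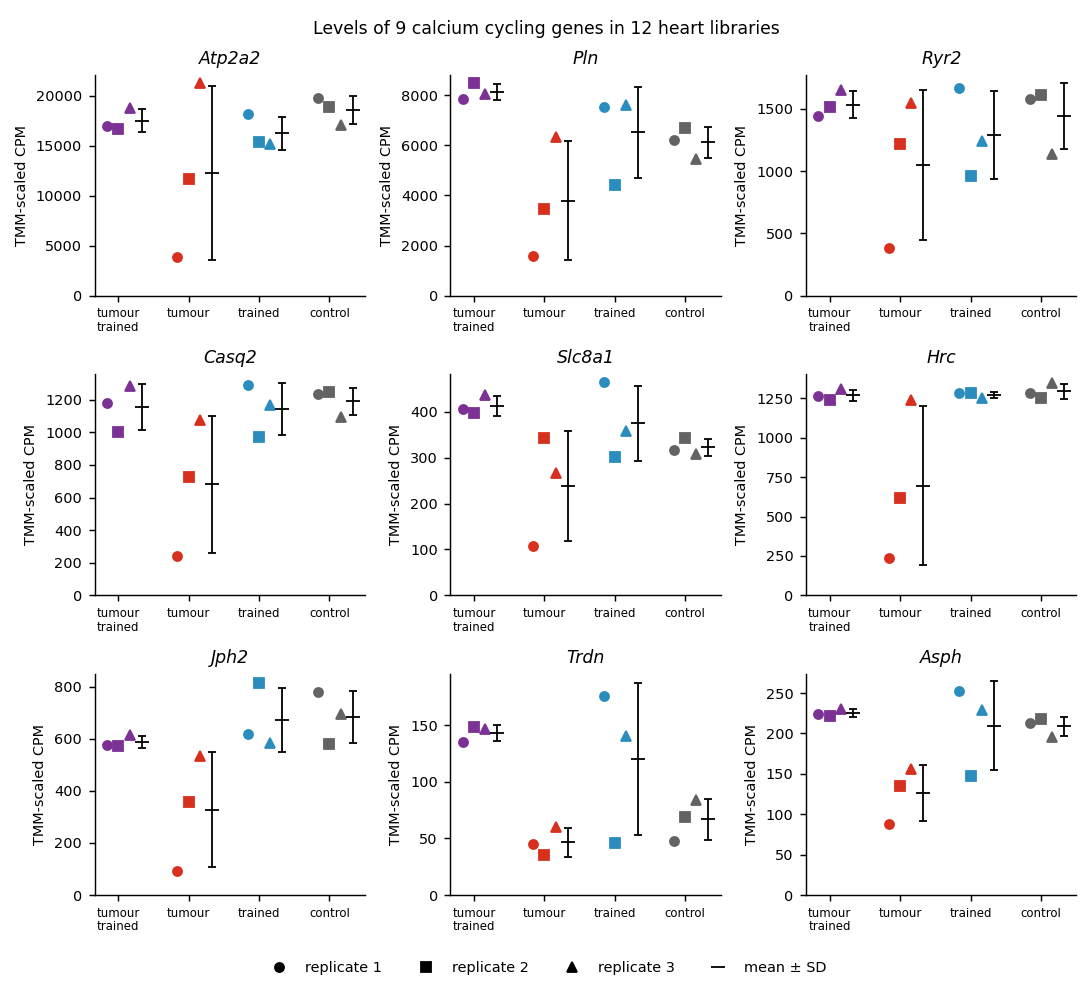
TMM-scaled CPM (y axis, linear from 0) of 9 genes in the tumour trained, tumour, trained and control groups (x axis), 1 point per library with replicate numbers by shape, and the mean ± SD beside them. Tumour 1 is the lowest library in 8 of the 9 panels, and tumour 3 lies near the control libraries in most.

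Ryr2, which encodes the cardiac ryanodine receptor, had 1441, 1516 and 1649 CPM in tumour trained hearts, 382, 1221 and 1549 CPM in tumour hearts, 1666, 959 and 1244 CPM in trained hearts, and 1581, 1615 and 1141 CPM in control hearts. All 4 groups overlapped, and tumour 1 was below every other library. Per kilobase, Ryr2 averaged 91.3 ± 6.26 CPM in tumour trained hearts and 86.0 ± 15.7 CPM in control hearts (SD, n = 3 each), well under the pump on the same scale.

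Trdn, which encodes triadin, had the largest fold change of the set in tumour trained over tumour hearts. It had 135, 148 and 146 CPM in tumour trained hearts, 44.7, 34.9 and 60.2 CPM in tumour hearts, 176, 45.5 and 140 CPM in trained hearts, and 47.6, 68.5 and 84.0 CPM in control hearts. All 3 tumour trained libraries were above all tumour and control libraries, and trained 2 sat with the tumour and control libraries while trained 1 and 3 sat with the tumour trained ones. Trdn was called in 1 comparison: it was 1.62 ± 0.40 higher on the log2 scale in tumour trained than in tumour hearts, in 3 of 3 libraries (edgeR quasi-likelihood adjusted p = 0.0371).

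Asph encodes aspartate beta-hydroxylase and, from shorter transcripts, junctin, the partner of triadin; gene counts cannot separate these products. It had 224, 221 and 230.0 CPM in tumour trained hearts, 87.9, 135 and 156 CPM in tumour hearts, 253, 147 and 229 CPM in trained hearts, and 213, 218 and 196 CPM in control hearts. Every tumour library was below every tumour trained and control library, and trained 2 was again apart from its group. Asph rose by 0.83 ± 0.23 on the log2 scale in tumour trained over tumour hearts (edgeR quasi-likelihood adjusted p = 0.0489), in 3 of 3 libraries. Against control hearts the tumour hearts differed by -0.73 ± 0.23, with an adjusted p of 0.071, which was not called.

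Jph2, which encodes junctophilin 2, had 578, 571 and 616 CPM in tumour trained hearts, 93.3, 356 and 535 CPM in tumour hearts, 619, 813 and 586 CPM in trained hearts, and 779, 579 and 696 CPM in control hearts. Here trained 2 was the highest library of all, while for Pln, Ryr2, Casq2, Slc8a1, Trdn and Asph it was the lowest outside the tumour group. Casq2, which encodes cardiac calsequestrin, ranged from 1003 to 1283 CPM in tumour trained hearts, 241 to 1079 CPM in tumour hearts, 972 to 1290 CPM in trained hearts and 1096 to 1246 CPM in control hearts. Hrc, the histidine-rich calcium binding protein gene, was the steadiest outside the tumour group, at 1240 to 1309 CPM in tumour trained hearts, 1252 to 1286 CPM in trained hearts and 1255 to 1346 CPM in control hearts. In tumour hearts Hrc had 235, 619 and 1237 CPM.

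Slc8a1, which encodes the sodium-calcium exchanger of the surface membrane, had 405, 397 and 437 CPM in tumour trained hearts, 108, 343 and 266 CPM in tumour hearts, 464, 302 and 358 CPM in trained hearts, and 316, 344 and 308 CPM in control hearts. It was the one gene of the set for which tumour 2 exceeded tumour 3 in CPM. The tumour trained libraries were above all tumour and control libraries and within the range of the trained ones.

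Tumour trained hearts were set against tumour hearts to ask how training altered hearts of mice with melanoma. The fold changes of all 9 genes tested were positive, between 0.51 for Atp2a2 and 1.62 for Trdn, with a median of 0.83 against -0.039 over all genes tested; scaled to the cardiomyocyte list, 5 of the 9 turned negative. Trdn and Asph were called higher, 2 of 9, and none was called lower. Of all genes tested 9.05% were called, 1.79% higher and 7.25% lower. At an unadjusted p under 0.05 there were 4 members (Pln and Slc8a1 besides), as were 31.9% of all genes. In 6 of the 9 (Pln, Slc8a1, Hrc, Jph2, Trdn and Asph) every tumour trained library was above every tumour library, as in 13.5% of all genes. Melanocyte markers summed to between 78.7 and 83.2 CPM in tumour trained hearts and between 85.2 and 12430 CPM in tumour hearts. Their part in the fold changes was not tested. The cardiomyocyte list summed to between 148502 and 154232 CPM in tumour trained hearts and between 31130 and 154688 CPM in tumour hearts. The calls were lost when counts were scaled to that list: Trdn was then 0.35 ± 0.57 higher (adjusted p = 0.584) and Asph turned to -0.28 ± 0.36 (adjusted p = 0.491), and all genes tested had a median of -1.37. Without tumour 1 and tumour 2, which leaves 1 tumour library and borrows its spread from the other groups, Trdn stood at 1.24 ± 0.56 (adjusted p = 0.343) and Asph at 0.51 ± 0.23 (adjusted p = 0.337).

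Leaving out any 1 library other than trained 2 or tumour 3 also took both calls away, control libraries included. Calls over all genes fell with them, from 1156 to between 3 and 8 in 9 of those 10 fits and to 111 without tumour 1, while over the 12 such fits Trdn stayed between 1.44 and 1.87 and Asph between 0.63 and 1.04. Without tumour 3, 7 of the 9 were called, as were 49.8% of all genes (21.7% higher). A DESeq2 Wald test called Pln, Trdn and Asph, and 15.2% of the 17355 genes with a count (3.51% higher). With the GC correction described below, all 9 stayed positive. Trdn was at 1.17 ± 0.32, Pln at 0.60 ± 0.52, Slc8a1 at 0.44 ± 0.43, Asph at 0.74 ± 0.23 and Casq2 at 0.73. Hrc, Jph2, Atp2a2 and Ryr2 were higher than without it, at 0.94, 0.91, 0.55 and 0.57. Trdn alone was then called, with 11.4% of all genes (2.5% higher).

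**Figure D2:**
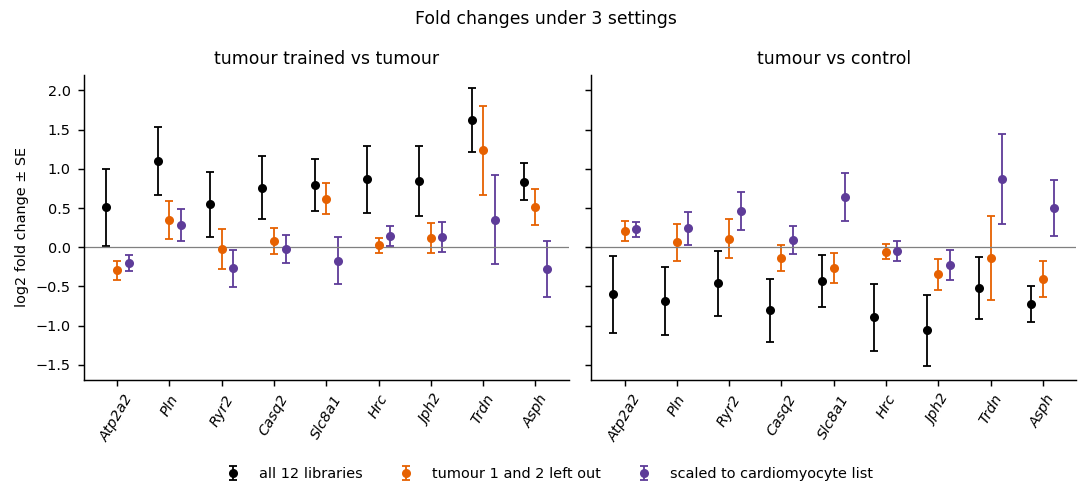
Log2 fold changes (y axis, ± SE from edgeR) of 9 genes (x axis) for tumour trained over tumour hearts (left) and tumour over control hearts (right) in 3 settings. With all 12 libraries every point is above 0 on the left and below 0 on the right; on the right, 7 of the 9 are above 0 after scaling to the cardiomyocyte list, where all genes tested have a median of 1.56.

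Tumour hearts were set against control hearts for the change that came with melanoma. All 9 fold changes were negative, between -1.06 for Jph2 and -0.43 for Slc8a1, with a median of -0.69 against 0.11 over all genes tested; scaled to the cardiomyocyte list, 7 of the 9 turned positive. None of the 9 was called in edgeR's quasi-likelihood test, where 6.79% of all genes were called, 5.33% higher and 1.46% lower. At an unadjusted p under 0.05 there were 2 (Jph2 and Asph), against 34.4% of all genes. The DESeq2 Wald test called 1 (Asph) and 14.3% of the 17355 genes with a count (3.77% lower). In 4 of the 9 (Casq2, Hrc, Jph2 and Asph) every tumour library was below every control library, as in 11.8% of all genes. Melanocyte markers summed to between 85.2 and 12430 CPM in tumour hearts and between 59.9 and 70.8 CPM in control hearts; their part in the fold changes was not tested. Without tumour 3, 6 of the 9 were called lower, as were 22.8% of all genes. Without tumour 1 and tumour 2, none was called, with 1.4% of all genes called, and Atp2a2, Pln and Ryr2 were at 0.20, 0.064 and 0.11.

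Per 1000 counts of the cardiomyocyte list, the picture of the tumour group was different. Atp2a2 had 112, 113 and 122 in tumour trained hearts, 124, 138 and 137 in tumour hearts, 110, 88.5 and 96.5 in trained hearts, and 121, 121 and 98.99 in control hearts. Tumour 1, the lowest library in CPM, was among the highest on this scale, and all 3 tumour libraries were above all control libraries. Pln had 52.1, 57.1 and 52.2 in tumour trained hearts, 50.9, 40.7 and 41.0 in tumour hearts, 45.4, 25.4 and 48.3 in trained hearts, and 37.7, 42.8 and 31.7 in control hearts, and the tumour trained libraries were again the 3 highest. Hrc averaged 8.41 ± 0.0729 in tumour trained hearts, 7.61 ± 0.365 in tumour hearts, 7.69 ± 0.288 in trained hearts and 7.89 ± 0.123 in control hearts (SD, n = 3 each). In edgeR with this scaling, no member was called in any of the 6 comparisons, while 73.4% of all genes were called in tumour against control hearts (72.9% higher) and 56.9% in tumour trained against tumour hearts (56.7% lower).

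**Figure D3:**
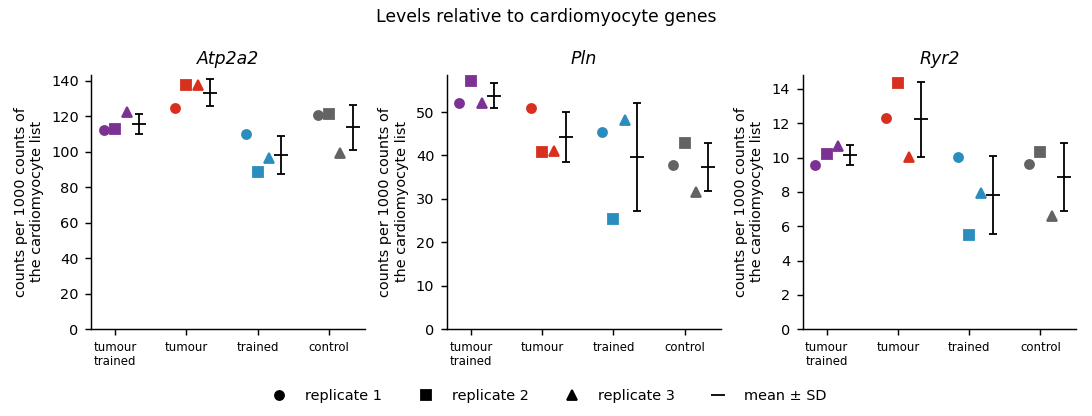
Counts of Atp2a2, Pln and Ryr2 per 1000 counts of 24 cardiomyocyte genes (y axis, linear from 0) in the 4 groups (x axis), 1 point per library, with the mean ± SD beside them. Tumour 1 lies within the range of the other libraries for Pln and above the control libraries for Atp2a2 and Ryr2.

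Trained hearts were set against control hearts for training without melanoma. None of the 9 genes was called by edgeR or DESeq2, edgeR called 0% of the 12778 genes tested, and no member was at an unadjusted p under 0.05, as 2.18% of all genes were. Fold changes lay between -0.19 for Atp2a2 and 0.85 ± 0.40 for Trdn (edgeR adjusted p = 1), and all 9 members had overlapping groups, where 4.04% of all genes had every trained library above and 5.44% every trained library below. Trdn was at 176 and 140 CPM in trained 1 and 3 and at 45.5 CPM in trained 2, against 47.6 to 84.0 CPM in control hearts. For Pln and Slc8a1, too, trained 2 lay below every control library. Leaving out trained 2 alone gave log2 fold changes of 0.29 ± 0.48 for Pln, 0.33 ± 0.38 for Slc8a1 and 1.225 ± 0.27 for Trdn. None of the 9 was then called, with 0% of all genes called. With all 12 libraries and the GC correction described below, Pln was at -0.25, Slc8a1 at -0.00502 and Trdn at 0.33.

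Tumour trained hearts were also set against trained hearts, for melanoma under training. None of the 9 was called by edgeR or DESeq2, none was at an unadjusted p under 0.05 (1.17% of all genes were), and edgeR called 0% of all genes. Fold changes lay between -0.19 for Jph2 and 0.32 for Pln, and Pln was the 1 gene whose groups did not overlap, with every tumour trained library above, as in 7.9% of all genes; 8.05% had every one below.

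Against control hearts, tumour trained hearts had 4 genes with every library above (Pln, Slc8a1, Trdn and Asph), as in 21.9% of all genes tested, and none with every library below (17.4%). None was called by edgeR or DESeq2, with 0% of all genes called by edgeR; at an unadjusted p under 0.05 there was 1, Trdn (1.10 ± 0.40, edgeR adjusted p = 0.766), against 6.46% of all genes. Fitted on these 2 groups alone, edgeR called Pln, Slc8a1 and Trdn higher, and 12.8% of all genes higher. With the GC correction described next, none was called, Pln, Slc8a1 and Asph turned to -0.22, -0.17 and -0.12, and Trdn was at 0.40 ± 0.32.

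The 4 genes that stood above control were the 4 of lowest GC content among the 9 tested. Over all genes tested, the median log2 fold change of tumour trained over control hearts ran from 0.56 to -0.18 over 10 bins of 1263 genes ordered from the lowest to the highest GC. Each library's low-GC genes (up to 44.4% GC) were compared with its high-GC genes (from 56.0% GC), relative to the mean of the 12 libraries. The difference was 0.22, 0.33 and 0.33 in tumour trained hearts, 0.76, -0.12 and -0.22 in tumour hearts, 0.24, -0.81 and 0.25 in trained hearts, and -0.37, -0.13 and -0.36 in control hearts on the log2 scale. The tumour trained libraries were all above the control libraries, and trained 2 was the lowest of the 12. The part of base composition in the levels of single genes was not tested beyond the correction.

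**Figure D4:**
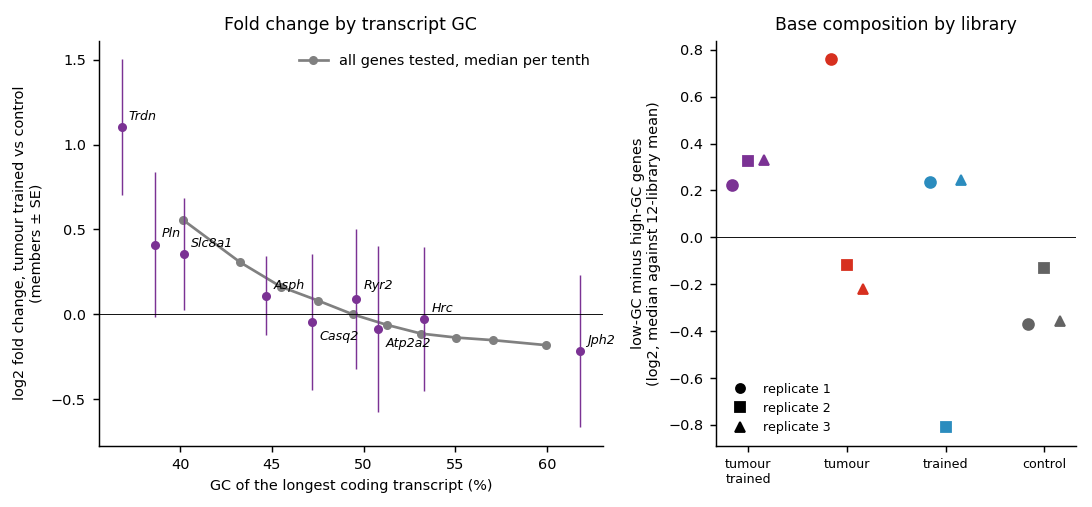
Left, log2 fold change of tumour trained over control hearts (y axis; members ± SE) against the GC percentage of the longest coding transcript (x axis), with the median of all genes tested in each of 10 bins by GC; right, the low-GC minus high-GC difference of each library (log2). Trdn, Pln, Slc8a1 and Asph, at the left end, are the members above 0.1, and the line falls from 0.56 to -0.18.

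The interaction, the tumour effect in trained mice minus that in untrained mice, was positive for all 9 genes, from 0.57 for Slc8a1 to 1.01 for Pln, with a median of 0.82 against -0.082 over all genes tested; scaled to the cardiomyocyte list, 4 turned negative. None was called by edgeR or DESeq2, and 0.0235% of all genes were called by edgeR. At an unadjusted p under 0.05 there was 1, Asph (0.83 ± 0.33, edgeR adjusted p = 0.307), against 14.4% of all genes. Without tumour 3, 4 were called (Pln, Casq2, Hrc and Asph), as were 30.1% of all genes (12.4% higher).

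Ratios of 2 genes' counts within a library do not depend on its size or scaling. Of 9 ratios planned, 8 could be computed, and each was tested across the 4 groups by an exact permutation test of the between-group sum of squares over 369600 assignments. The ratio of Pln to Atp2a2, inhibitor to pump, was 0.463, 0.507 and 0.427 in tumour trained hearts, 0.409, 0.296 and 0.298 in tumour hearts, 0.414, 0.287 and 0.5001 in trained hearts, and 0.313, 0.353 and 0.320 in control hearts. Tumour trained libraries were above all tumour and control libraries and overlapped the trained ones. Across the 4 groups the ratio did not differ past the threshold (exact permutation p = 0.150, adjusted over the 8 ratios 0.401). It averaged 0.466 ± 0.0396 in tumour trained hearts and 0.329 ± 0.0216 in control hearts (SD, n = 3 each), 1.42-fold higher. For this pair of groups the exact permutation p was 0.1, adjusted 0.444 over the 40 pairs. With the GC correction the log2 difference between these groups turned to -0.15, against 0.50 without it. Between 2 groups of 3 the exact two-sided test cannot go below 0.1, and none of the 40 pairs of groups compared over the 8 ratios had an adjusted p below 0.444.

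The ratio of Slc8a1 to Atp2a2, exchanger to pump, averaged 0.0236 ± 0.000357 in tumour trained hearts, 0.0232 ± 0.00933 in tumour hearts, 0.0229 ± 0.00303 in trained hearts and 0.0174 ± 0.00125 in control hearts (SD, n = 3 each). Tumour 3 was at 0.0125, below every control library, and tumour 1 and 2 at 0.0279 and 0.0293, above every other library. The exact permutation p was 0.483 (adjusted 0.644), and without tumour 3 it was 0.00123 (adjusted 0.00987). That omission left tumour 1 and 2, the libraries high in melanocyte markers, as the tumour group. With tumour 1 and 2 left out instead, the log2 difference of tumour from control hearts was -0.47, against 0.32 with all 12 libraries. With the GC correction and all 12 libraries the exact permutation p was 0.869, to be set against 0.483.

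Casq2 to Ryr2 had the lowest p of the 8, at 0.0378 (exact permutation, adjusted 0.302), and between 0.0125 and 0.112 with 1 library left out at a time. It averaged 0.753 ± 0.0818 in tumour trained hearts, 0.641 ± 0.052 in tumour hearts, 0.909 ± 0.122 in trained hearts and 0.838 ± 0.107 in control hearts (SD, n = 3 each), and the tumour libraries were all below the control ones. Jph2 to Ryr2 followed (exact permutation p = 0.0779, adjusted 0.312), with 0.244 to 0.346 in tumour hearts and 0.359 to 0.610 in control hearts. For Ryr2 to Atp2a2, Trdn to Casq2, Asph to Casq2 and Hrc to Casq2 the exact permutation p lay between 0.325 and 0.869.

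**Figure D5:**
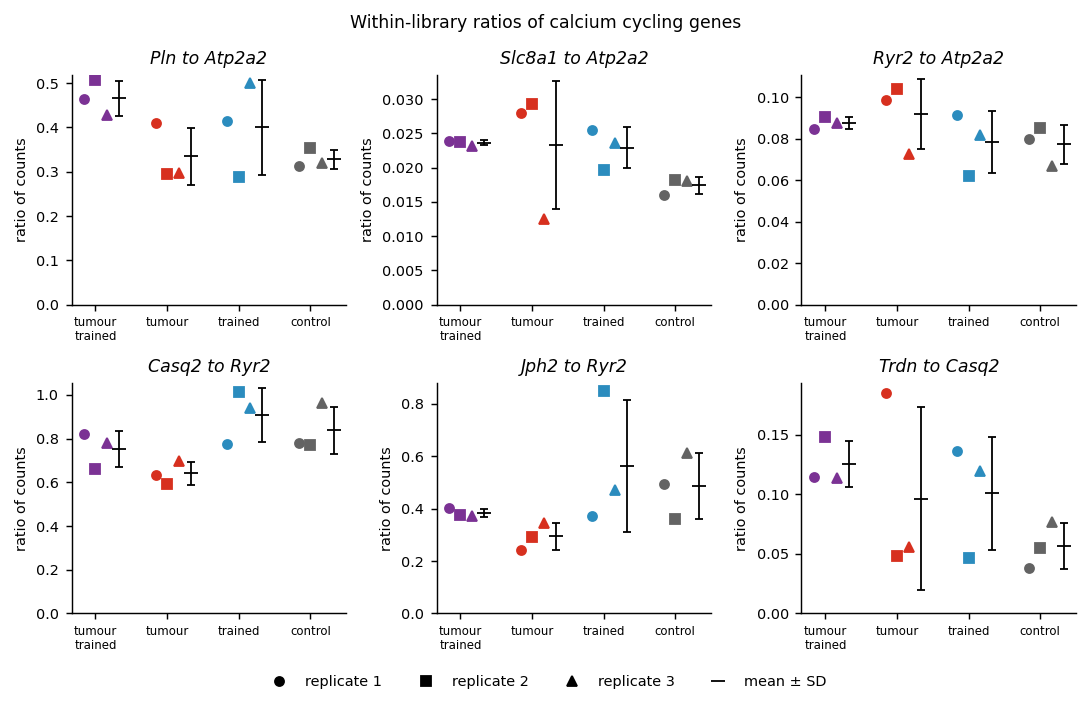
Ratios of counts of 2 genes within a library (y axis, linear from 0) in the 4 groups (x axis), 1 point per library, with the mean ± SD beside them. Pln to Atp2a2 is above 0.42 in all 3 tumour trained libraries and below 0.36 in all control libraries; trained 2 is apart from trained 1 and 3 in several panels.

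Other genes of calcium handling were taken from 4 lists of 63 genes, of which 53 were tested. In tumour trained against tumour hearts 2 were called higher and 1 lower, against 9.05% of all genes called, and in the other 5 comparisons edgeR called none, against 6.79% of all genes in tumour against control hearts and at most 0.0235% in the other 4. Akap6, which anchors protein kinase A near the ryanodine receptor, had 200, 222 and 226 CPM in tumour trained hearts against 58.0, 127 and 115 CPM in tumour hearts (1.11 ± 0.28 on the log2 scale, edgeR adjusted p = 0.0399). Cacna2d1, a subunit of the surface calcium channel, had 173, 201 and 183 CPM in tumour trained hearts against 59.3, 88.0 and 105 CPM in tumour hearts (1.14 ± 0.32, edgeR adjusted p = 0.0483). Stim1, the sensor of calcium in the store, had 25.3, 26.5 and 22.4 CPM in tumour trained hearts against 44.8, 35.5 and 32.8 CPM in tumour hearts (-0.61 ± 0.16, edgeR adjusted p = 0.0439). In all 3 the tumour trained and tumour groups did not overlap, as in 13.5% of all genes with every tumour trained library above and 14.5% with every one below. Control hearts had 173, 185 and 154 CPM of Akap6, 81.3, 117 and 129 CPM of Cacna2d1, and 28.9, 27.7 and 33.9 CPM of Stim1. Trained hearts had 213, 118 and 183 CPM of Akap6, 186, 77.3 and 173 CPM of Cacna2d1, and 25.0, 29.8 and 24.9 CPM of Stim1. Stim1 in tumour 3 lay within the control range. Whether these 3 calls held under the alternative settings was not tested. None of the 14 pump regulators tested was called in any comparison.

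Across the 10 libraries without tumour 1 and tumour 2, log2 CPM of Pln varied with that of Trdn (Pearson r = 0.82), Asph (0.79) and Slc8a1 (0.73), against Jph2 (-0.73) and hardly with Atp2a2 (0.11), as a description of libraries that share group and base composition. The genes most like Pln over those 10 libraries were Sucla2, Rnf13 and Canx (r = 0.99 each). Over all 12 libraries, where tumour 1 and 2 set most of the range, they were Mfn1, Acat1 and Ginm1 for Pln, Gfm2, Tmem182 and Gab1 for Atp2a2, and Fyco1, Dnajc18 and Lama2 for Ryr2. Over the 10 libraries they were Nek9, Cobll1 and Grpel1 for Atp2a2.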

How the data were processed

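Estimated counts per gene were deposited by the authors as 1 table for all 12 libraries; HISAT2 2.2.1 and featureCounts are named in the submitters' processing notes, with the builds GRCm39 and mm10. The build behind the counts, the gene models, strandedness and the handling of shared reads were not given in the sources used here; 7.09% to 8.92% of the values per library were not whole. Counts were rounded. Of 17397 genes, 12778 passed the default filter of edgeR 4.0.16 (R 4.3.3) and were tested there (TMM, quasi-likelihood, 1 fit of 12 libraries with 1 mean per group, 8 residual degrees of freedom), adjusted by Benjamini-Hochberg over all genes. DESeq2 1.42.0 was an alternative. The edgeR step was run on simulated data with the same spread in every group. The wider spread among the tumour libraries was not simulated. Ratios were tested by exact permutation, adjusted over 8 ratios, not the planned 9, since Sln was near 0. GC shares came from the longest GENCODE M21 coding transcript, found for 98.8% of genes tested; the GC correction used a lowess curve per library. The floor of 3 counts covers counting error only. Named genes were the 10 members, list genes called in a comparison, and for Atp2a2, Pln and Ryr2 the 3 genes of highest correlation; none was given for Sln, and those for Ryr2 over 10 libraries are not reported here. Members and lists were chosen with earlier results of these data known. Replicates of a group differed by more than sampling noise, and none was merged.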

Additional observations from a re-analysis of the deposited data

How the results depend on the processing

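Alternatives numbered 25 for each comparison of 2 groups and 24 for the interaction; the GC correction, alone and without tumour 1 and tumour 2, and the omission of tumour 1, tumour 2 and trained 2 were chosen after seeing the data. Groups of 3 limit every result, and the cause of each change below was not tested. Fits without both tumour 1 and tumour 2 left 1 tumour library, and their log2 values that changed sign follow below. For tumour trained against tumour hearts, the count of 2 genes called became 0 with cardiomyocyte scaling, with the replicate block and with only the groups compared. Of all genes in those fits, 56.9%, 0.141% and 0.0159% were called. The count became 1 with no filter (7.67% of all genes in that fit), robust dispersion (7.83%) or the GC correction (11.4%). Leaving out 1 library at a time gave 0 to 7 there, 0 to 6 for tumour against control hearts and 0 to 4 for the interaction, while calls over all genes ran from 3 to 6619, 4 to 7043 and 2 to 4002. For tumour against control hearts, 1 gene was called with DESeq2 (14.3% of the 17355 genes with a count) and with the GC correction (10.2% of all genes). Tumour trained against control hearts gave 3 with only the groups compared, where 20.4% of all genes were called. The exact permutation p of Slc8a1 to Atp2a2 was 0.00286 without tumour 1 and tumour 2, 0.00159 also without trained 2, and 0.00123 to 0.768 leaving out 1 library at a time. That p then ran from 0.0268 to 0.310 for Pln to Atp2a2 and from 0.0329 to 0.226 for Jph2 to Ryr2. No consistent pairing of libraries by replicate number was seen (correlations of deviations -0.27 to 0.24). With groups of 3, pairing was not excluded. Under the replicate block 16 genes of all tested were called for tumour against control hearts and 18 for tumour trained against tumour hearts. Without the block these numbers were 868 and 1156. With the block the exact permutation p of Pln to Atp2a2 was 0.215.

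Of 1341 member fold changes under alternatives, 102 changed sign, including 1 that lost its call (Asph, cardiomyocyte scaling). Another 32 lost a call, 30 gained one and 1177 did neither. The log2 values that changed sign follow by setting. Scaled to the cardiomyocyte list, tumour against control hearts gave Asph 0.50, Atp2a2 0.23, Casq2 0.0896, Pln 0.24, Ryr2 0.46, Slc8a1 0.64 and Trdn 0.87, with a median of all genes of 1.56. Tumour trained against tumour hearts then gave Asph -0.28, Atp2a2 -0.20, Casq2 -0.022, Ryr2 -0.27 and Slc8a1 -0.17. The same scaling gave Hrc 0.13 against trained hearts, and Atp2a2 0.027, Casq2 0.068 and Hrc 0.092 against control hearts, both for tumour trained hearts. It gave interactions of -0.28 for Asph, -0.087 for Ryr2, -0.37 for Slc8a1 and -0.51 for Trdn. Without tumour 1 and tumour 2, tumour against control hearts gave Atp2a2 0.20, Pln 0.064 and Ryr2 0.11, tumour trained against tumour hearts gave Atp2a2 -0.30 and Ryr2 -0.029, and the interaction of Atp2a2 was -0.10. Also without trained 2, the first comparison gave Atp2a2 0.20, Pln 0.064 and Ryr2 0.11 and the second Atp2a2 -0.30 and Ryr2 -0.028. That setting gave Casq2 0.0396 and Ryr2 0.0048 for trained against control hearts, Asph -0.097, Casq2 -0.089, Hrc 0.0043 and Trdn -0.14 for tumour trained against trained hearts, and interactions of -0.13 for Atp2a2, -0.033 for Ryr2 and -0.0018 for Trdn. With the GC correction, trained against control hearts gave Asph -0.072, Hrc 0.0058, Pln -0.25 and Slc8a1 -0.00502. Tumour trained against trained hearts gave Asph -0.053, Casq2 -0.082, Hrc 0.0596 and Slc8a1 -0.16, and against control hearts Asph -0.12, Hrc 0.065, Pln -0.22 and Slc8a1 -0.17. With the GC correction and without tumour 1 and tumour 2, tumour against control hearts gave Atp2a2 0.17, Pln 0.051 and Ryr2 0.079, tumour trained against tumour hearts Atp2a2 -0.22 and Pln -0.25, and trained against control hearts Asph -0.064, Hrc 0.0088 and Pln -0.23. It gave Asph -0.049, Casq2 -0.076, Hrc 0.066 and Slc8a1 -0.16 for tumour trained against trained hearts, Asph -0.11, Hrc 0.075, Pln -0.20 and Slc8a1 -0.15 against control hearts, and interactions of -0.049 for Atp2a2 and -0.026 for Pln. For trained against control hearts, Asph was -0.018 with DESeq2, -0.017 with its size factors, -0.0072 with no filter, -0.0016 with only the groups compared and -0.0065 with the replicate block. For tumour trained against trained hearts, Casq2 was -0.0038 with DESeq2 and -0.0039 with its size factors, and Hrc was 0.0087 with library size alone, which gave 0.0047 against control hearts. Leaving out 1 library at a time, trained against control hearts ranged over -0.20 to 0.071 for Jph2, -0.16 to 0.19 for Asph, -0.043 to 0.29 for Pln and -0.16 to 0.027 for Casq2. Tumour trained against trained hearts ranged over -0.098 to 0.25 for Asph, -0.091 to 0.098 for Casq2, -0.032 to 0.0041 for Hrc and -0.14 to 0.62 for Trdn, and against control hearts over -0.077 to 0.15 for Ryr2 and -0.14 to 0.027 for Casq2.

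Of 680 differences in log2 ratio between 2 groups under alternatives, 60 changed sign. Without tumour 1 and tumour 2, tumour against control hearts gave -0.14 for Pln to Atp2a2, -0.47 for Slc8a1 to Atp2a2, -0.079 for Ryr2 to Atp2a2, -0.27 for Asph to Casq2 and 0.077 for Hrc to Casq2. Tumour trained against tumour hearts gave 0.27 for Ryr2 to Atp2a2, 0.43 for Asph to Casq2 and -0.053 for Hrc to Casq2. All 8 had the same values also without trained 2, which gave -0.19 for Jph2 to Ryr2 and -0.076 for Hrc to Casq2 in trained against control hearts. In tumour trained against trained hearts it gave -0.056 for Slc8a1 to Atp2a2, -0.036 for Trdn to Casq2, -0.00052 for Asph to Casq2 and 0.099 for Hrc to Casq2. With the GC correction, Pln to Atp2a2 was -0.36 in tumour against control hearts, -0.062 in trained against control hearts, and in tumour trained hearts -0.088 against trained and -0.15 against control hearts. Slc8a1 to Atp2a2 was -0.017 in tumour against control hearts, and in tumour trained hearts -0.087 against tumour, -0.26 against trained and -0.10 against control hearts. Asph to Casq2 was -0.0063 in trained against control hearts, and Hrc to Casq2 0.032 in tumour against control and 0.15 in tumour trained against trained hearts. Leaving out 1 library at a time, tumour against control hearts ranged over -0.14 to 0.091 for Pln to Atp2a2, -0.073 to 0.90 for Trdn to Casq2 and -0.095 to 0.57 for Asph to Casq2. Tumour trained against tumour hearts ranged over -0.21 to 0.049 for Ryr2 to Atp2a2, -0.41 to 0.25 for Asph to Casq2 and -0.28 to 0.34 for Slc8a1 to Atp2a2. Trained against control hearts ranged over -0.19 to 0.41 for Jph2 to Ryr2, -0.076 to 0.13 for Hrc to Casq2, -0.11 to 0.17 for Ryr2 to Atp2a2 and -0.024 to 0.16 for Asph to Casq2. Tumour trained against trained hearts ranged over -0.056 to 0.13 for Slc8a1 to Atp2a2, -0.036 to 0.73 for Trdn to Casq2, -0.00052 to 0.19 for Asph to Casq2 and -0.11 to 0.099 for Hrc to Casq2, and against control hearts over -0.057 to 0.11 for Hrc to Casq2.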
